A study of Mus musculus with 39 samples.

Results

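Housing at 30 °C, near the warmth at which a mouse spends little energy on body heat, was compared with housing at 22 °C, a mild cold, in brown fat labelled Bcl6-floxed with Ucp1-Cre. The members are the 4 RNA libraries labelled Cre-positive at 22 °C and the 4 labelled Cre-positive at 30 °C, picked by label. This choice and the gene lists below were made with earlier results of these data known. They are 8 of the 16 RNA libraries and 8 of the 39 samples of the whole series. All were made from polyA RNA of the interscapular fat depot of male C57BL/6J mice that ate standard chow under equal light and dark periods. The other 8 RNA libraries, 4 at each temperature, carry the floxed Bcl6 alleles without Cre and serve as controls. The floxed alleles are therefore common to all 4 groups, and the labels set these groups apart by Cre and temperature.

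Ucp1-Cre is active in cells that express Ucp1, so vessels, macrophages and other cells of the depot keep the floxed gene intact by design. The labels give neither the age of the mice, nor the length of time at each temperature, nor whether 1 sample is 1 animal. The replicates are separate samples by their titles, and p-values therefore measure the spread between these samples. As these were pieces of whole tissue, fewer cells of a type and less RNA per cell cannot be told apart in any result below.

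Brown fat burns fuel to make heat. Cold reaches it through sympathetic nerves, noradrenaline binds beta-adrenergic receptors, cyclic AMP rises, and lipolysis feeds mitochondria in which UCP1 lets protons bypass ATP synthase. Warm housing withdraws that drive, and the tissue is known to store more lipid and to take on a paler look. BCL6 is a transcriptional repressor with a zinc finger DNA-binding domain, best known from germinal centre B cells.

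Bcl6 (chromosome 16, 23965050 to 23988866 in GRCm38.p6, the build named mm10) did not show the loss that the Cre label implies. Its normalised count was 3263, 2670.5, 3362 and 3927 at 22 °C and 3269, 4451, 5159 and 4985 at 30 °C in the libraries labelled Cre-positive. The controls gave 916, 799, 764 and 1838 at 22 °C and 2340.5, 2266, 1763 and 1020.1 at 30 °C. Every library labelled Cre-positive lay above every control, so the labels are used here as names only, and the libraries are called Cre-labelled. The deposited value is 1 number per gene, and it does not show which exons the reads came from. Temperature made no difference past the threshold to Bcl6 in Cre-labelled fat (log2 difference 0.43, SE 0.27, adjusted p = 0.252).

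The promoter windows below are printed because they belong to genes on which the results turn: the cold-responsive Dio2, 3 macrophage genes that were among those higher at 30 °C, and the leptin gene Lep, whose window lies partly under a deposited BCL6 peak. These 5 were picked after their values and matches were seen. Each runs from 250 bases before to 50 after the RefSeq start of the gene in GRCm38.p6, 5′ to 3′ on the gene's own strand. Capitals mark the cyclic AMP response element letters TGACGTCA in Dio2, the AP-1 letters TGACTCA or their reverse complement TGAGTCA in Gpnmb, Cd68 and Itgax, and the 78 bases under the peak in Lep.
Dio2, chr12:90738989-90739288, minus strand: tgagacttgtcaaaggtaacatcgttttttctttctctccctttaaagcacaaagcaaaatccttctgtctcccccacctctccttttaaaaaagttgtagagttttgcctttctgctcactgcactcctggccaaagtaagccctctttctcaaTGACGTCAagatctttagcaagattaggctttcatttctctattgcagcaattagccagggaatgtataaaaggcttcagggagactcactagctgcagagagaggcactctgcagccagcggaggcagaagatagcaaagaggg
Gpnmb, chr6:49036268-49036567, plus strand: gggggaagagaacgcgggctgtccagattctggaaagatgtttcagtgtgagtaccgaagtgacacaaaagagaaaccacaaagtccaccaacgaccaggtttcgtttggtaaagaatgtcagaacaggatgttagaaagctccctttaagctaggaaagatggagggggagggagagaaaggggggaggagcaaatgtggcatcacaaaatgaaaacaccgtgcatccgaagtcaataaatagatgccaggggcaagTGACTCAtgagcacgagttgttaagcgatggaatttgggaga
Cd68, chr11:69666121-69666420, minus strand: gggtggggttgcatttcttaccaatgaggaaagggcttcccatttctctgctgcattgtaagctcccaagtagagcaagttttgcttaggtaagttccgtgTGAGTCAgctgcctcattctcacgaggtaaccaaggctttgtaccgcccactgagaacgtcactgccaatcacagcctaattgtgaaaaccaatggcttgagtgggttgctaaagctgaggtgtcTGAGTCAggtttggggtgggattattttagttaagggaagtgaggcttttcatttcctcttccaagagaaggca
Itgax, chr7:128129300-128129599, plus strand: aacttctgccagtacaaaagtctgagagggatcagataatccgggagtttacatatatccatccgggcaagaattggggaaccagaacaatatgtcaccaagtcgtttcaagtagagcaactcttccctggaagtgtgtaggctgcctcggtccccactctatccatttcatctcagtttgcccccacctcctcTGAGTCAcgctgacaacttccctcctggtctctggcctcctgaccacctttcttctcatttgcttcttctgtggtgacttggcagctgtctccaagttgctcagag
Lep, chr6:29059971-29060270, plus strand: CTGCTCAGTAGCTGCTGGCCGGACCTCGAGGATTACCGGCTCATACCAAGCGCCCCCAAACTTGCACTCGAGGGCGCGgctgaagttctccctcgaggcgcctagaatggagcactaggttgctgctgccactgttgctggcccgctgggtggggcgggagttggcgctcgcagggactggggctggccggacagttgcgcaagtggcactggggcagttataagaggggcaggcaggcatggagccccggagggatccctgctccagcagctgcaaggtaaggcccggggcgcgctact
The Dio2 match begins 95 bases before the start of the gene and the Itgax match 56 before it. Cd68 holds the AP-1 letters at 149 and at 24 bases before its start, and Gpnmb holds them 8 bases after the first base. Like genes named below mostly lack these letters in their windows. Mmp12 holds the AP-1 letters, but Trem2, Lgals3, Clec4d, Mpeg1, C1qb, Ctss, Cd163 and Cx3cr1 do not. Clstn3 holds the cyclic AMP letters, but Ucp1, Ppargc1a, Otop1 and Acot11 do not. A match to these letters is a description of the sequence and no measure of binding.

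Values are given as normalised counts, and differences as 30 °C minus 22 °C on the scale log2(value + 1), which understates the change of low genes. Of 13176 genes that averaged 10 or more across the 16 RNA libraries, 1978 were higher at 30 °C (15.0%) and 2336 were lower (17.7%) at an adjusted p under 0.05 (limma, Benjamini-Hochberg). Changes of at least 2-fold were more often upward, with 745 genes (5.65%) against 378 (2.87%). The 2 groups did not overlap for 4540 genes (34.5%). The median difference over all genes tested was 0.02. When each library was instead scaled to the mean total, that median became 0.31, and 4397 genes were higher and 1127 lower. The share of higher genes among those called then rose from 45.9% to 79.6%, and each direction below is given relative to all genes. Counts for every list below stand beside the shares of 15.0% higher and 17.7% lower over all genes tested.

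The sum of all deposited values was 10122739 to 12867466 per cool Cre-labelled library and, for warm ones, 8867615 to 9479495 at 30 °C, without overlap. The first principal component, with 47.3% of the variance among the 8 libraries, separated the temperatures. Along the second, with 24.9%, library 2 at 22 °C and library 1 at 30 °C stood farthest out on one side. Those 2 had the lowest scores for skeletal muscle genes, at -2.82 and -3.41, against 2.74 in library 1 at 22 °C. Muscle genes thus varied within both temperatures, with summed levels of 3681 to 55233 at 22 °C and 3287 to 47576 at 30 °C. Only 1 of 44 muscle genes passed the test in Cre-labelled fat. Without those 2 libraries, 1226 genes were higher and 1468 lower, a choice made after the data were seen and one that leaves fewer samples.

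**Figure D1:**
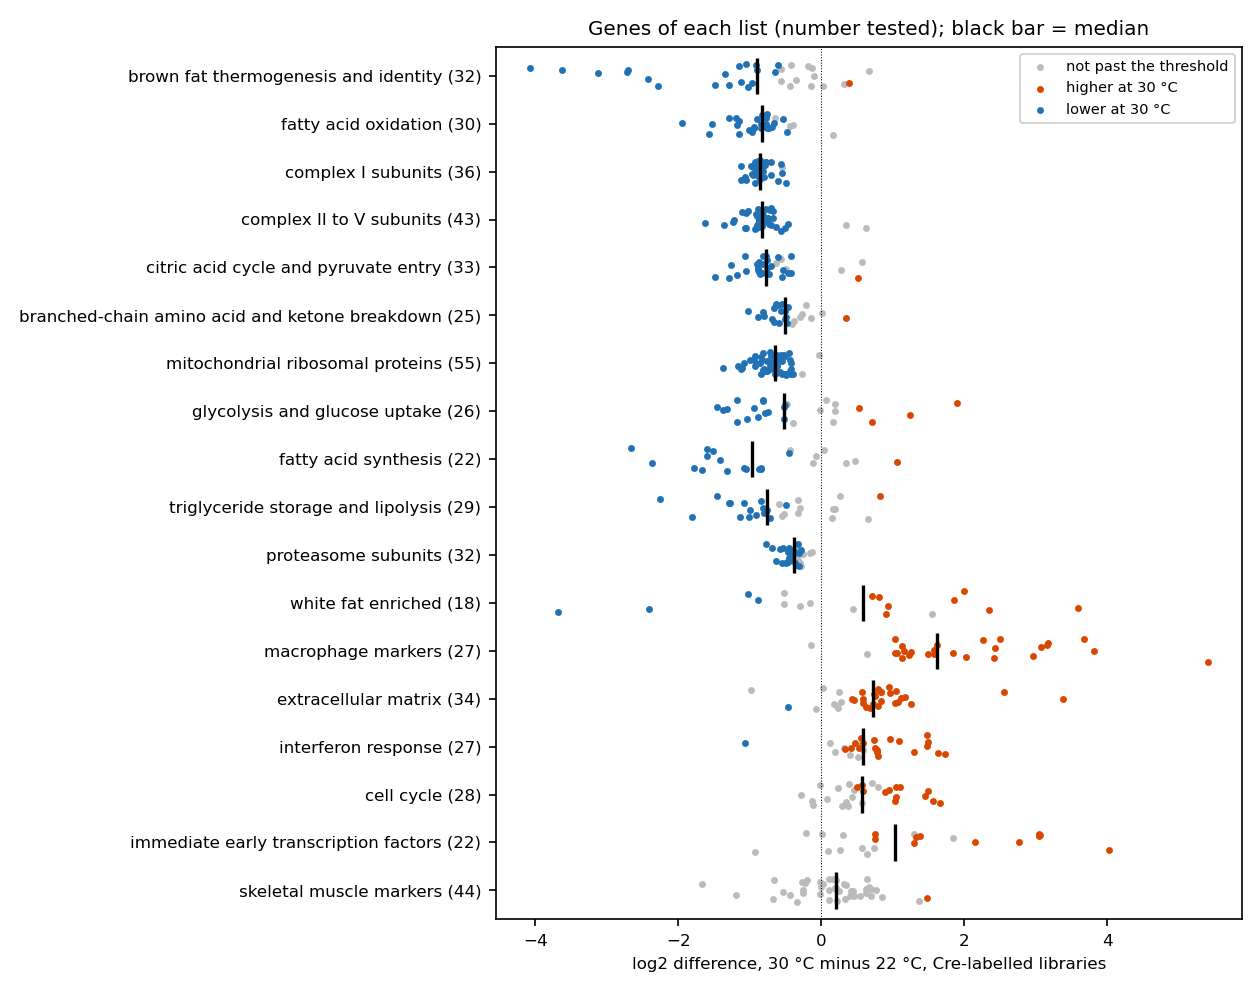
Each point is 1 gene of a list, placed by its log2 difference between 30 °C and 22 °C in Cre-labelled fat (x axis); rows are lists with the number of genes tested, black bars are medians, and colour shows the call. Thermogenic, mitochondrial and lipogenic lists sit left of 0, with medians of -0.97 to -0.39 from fatty acid synthesis to the proteasome, and macrophage markers sit right of it with a median of 1.63.

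Genes of heat production were lower at 30 °C. Of 32 genes for brown fat thermogenesis and identity, 19 fell and 1 rose, with a median of -0.90, where 17.7% and 15.0% of all genes tested did so. The summed level of 11 fat cell markers, which hold Ucp1, Cidea and other brown fat genes beside Adipoq, Plin1 and Fabp4 of fat cells in general, was 190638 to 300322 at 22 °C and 110539 to 139346 at 30 °C. Ucp1 (chromosome 8, 83290348 to 83298456), the proton channel itself, had 41416, 60444, 32697 and 49018 at 22 °C and 4238, 3761, 6829 and 6487 at 30 °C. Every warm library lay far below every cool one. Its mean fell from 45894 ± 11770 (SD, n = 4) to 5329 ± 1554 (SD, n = 4), which is 8.68-fold (log2 difference -3.12, SE 0.25, adjusted p = 5.45e-07).

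Dio2, the deiodinase that makes active thyroid hormone in the depot, had 3893, 5599.6, 1693 and 6268 at 22 °C and 208, 131, 1253 and 284 at 30 °C. Library 3 stood apart from the other warm libraries and came close to the lowest cool one, yet the groups did not overlap (log2 difference -3.63, SE 0.59, adjusted p = 0.000269). Elovl3, a fatty acid elongase long used as a sign of cold-activated brown fat, had 62.2, 28.3, 54.1 and 71 at 22 °C and 0.678, 2.19, 1.91 and 4.85 at 30 °C. No warm library reached 5 normalised counts (log2 difference -4.08, SE 0.55, adjusted p = 5.58e-05). Gk, the glycerol kinase that lets brown fat reuse glycerol, read 657, 934, 809 and 2465 at 22 °C and 167, 189, 172 and 269 at 30 °C. Library 4 held the high value among the cool libraries, and the difference was -2.42 (SE 0.32, adjusted p = 5.74e-05).

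Other effectors moved the same way. Otop1, a proton channel gene enriched in brown fat, fell by 2.71 on the log2 scale (adjusted p = 1.25e-07), from the range 2258 to 2688 at 22 °C to the range 276 to 471 at 30 °C. Acot11, an acyl-CoA thioesterase known to be induced by cold, fell by 2.70 (adjusted p = 1.77e-05). Clstn3, whose locus encodes a short adipose form at the lipid droplet, fell from the range 3234 to 3958 at 22 °C to the range 573 to 906 at 30 °C (log2 difference -2.29, SE 0.14, adjusted p = 1.03e-07). Ppargc1a, the coactivator of mitochondrial genes, had 669.7, 1734, 605 and 1969 at 22 °C and 309, 431, 287 and 589 at 30 °C. Libraries 2 and 4 carried the high cool values, and without library 2 at 22 °C and library 1 at 30 °C the adjusted p was 0.0617 instead of 0.00539. Cidea, a lipid droplet protein of brown fat, fell less, by 0.91 (adjusted p = 0.00145), with 1 high cool value of 45124 in library 2. Cpt1b, which brings fatty acids into mitochondria, fell from the range 13037 to 16190 at 22 °C to the range 6018 to 8632 at 30 °C (log2 difference -0.97, SE 0.14, adjusted p = 8.55e-05). The single member of the list that rose was Ntrk3, a neurotrophin receptor gene, at 0.39 (adjusted p = 0.0264). That call was lost without any 1 of libraries 2, 3 or 4 at 22 °C or 1 or 2 at 30 °C.

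**Figure D2:**
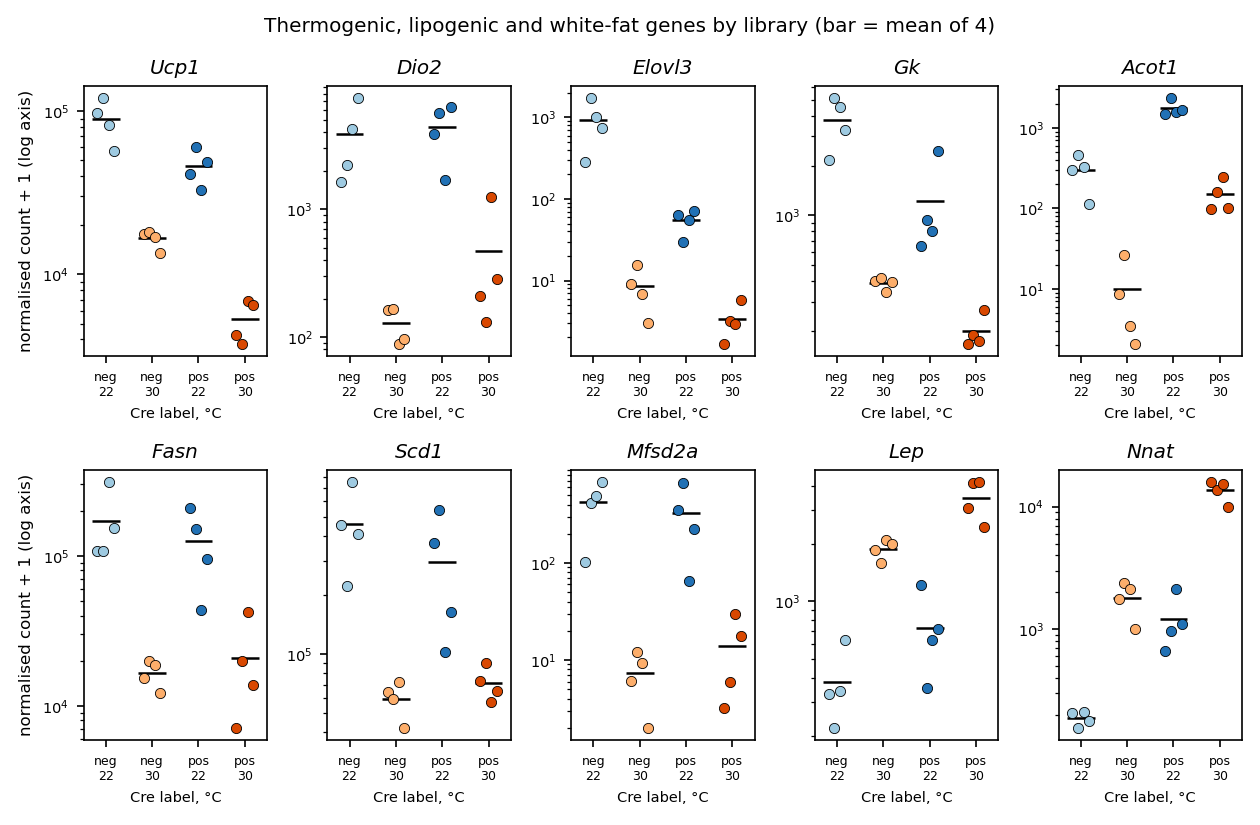
Normalised count + 1 on a log axis for 10 genes in all 16 RNA libraries, by Cre label and temperature in °C; points are libraries and bars are means of 4. In Cre-labelled fat Ucp1, Dio2, Elovl3, Gk, Acot1, Fasn, Scd1 and Mfsd2a lie lower at 30 °C and Lep and Nnat higher, with no overlap between temperatures.

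Transcription factors went both ways or did not pass the test. Prdm16, which sets brown over muscle fate, had 579.6, 402, 470.3 and 467 at 22 °C and 318, 316, 389 and 401 at 30 °C, and the groups did not overlap, but the difference of -0.43 missed the threshold (adjusted p = 0.116). Ebf2 differed by -0.10 (adjusted p = 0.666), Pparg by -0.05 (adjusted p = 0.827) and Zic1 by -0.18 (adjusted p = 0.539). These 3 were named after their values were seen. Of 32 lineage transcription factors, 4 rose and 4 fell, fewer than the shares of 15.0% and 17.7% over all genes, and scaling to the mean total gave 10 and 2. Bcl6b, a paralog of Bcl6, rose from the range 378 to 1022 at 22 °C to the range 2379 to 3717 at 30 °C (log2 difference 1.99, SE 0.35, adjusted p = 0.000436), and Id4, a helix-loop-helix inhibitor, rose by 1.56. Hlx, a homeobox factor that supports the thermogenic programme, fell by 1.41 and Klf15 by 0.80. Of 33 nuclear receptors and coregulators 6 fell (3 after scaling to the mean total), near the share over all genes, and Nr2f1 alone rose (0.73, adjusted p = 0.0117, lost without library 2 at 22 °C and library 1 at 30 °C). Esrra, the receptor ERR alpha that drives oxidative genes, had 2479, 2179.9, 2272 and 2346 at 22 °C and 804, 1284, 1466 and 1073 at 30 °C (log2 difference -1.04, SE 0.14, adjusted p = 6.61e-05). Its relative Esrrg did not pass the test (-0.26, adjusted p = 0.489).

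Of 29 genes of adrenergic signalling, the route by which cold reaches the cell, 7 fell and 5 rose, with a median of -0.10. These counts are near the shares of 17.7% and 15.0% over all genes tested, and scaling to the mean total gave 6 and 9. Adcy3, an adenylyl cyclase, dropped from the range 3652 to 7011 at 22 °C to the range 946 to 1402 at 30 °C (log2 difference -2.06, SE 0.24, adjusted p = 1.77e-05). Gnas, the stimulatory G protein, differed by -1.20 (adjusted p = 3.45e-05), although this was lost under quantile normalization (adjusted p = 0.12). Prkar2b and Prkaca, a regulatory and a catalytic subunit of protein kinase A, fell by 1.04 and 0.56. Adrb3, the main receptor of fat cells, had 3036, 2226, 1822 and 2908 at 22 °C and 2013, 1331, 2509.5 and 1109 at 30 °C, with overlapping groups and no call (-0.57, adjusted p = 0.183). Adrb1 missed the threshold as well (-0.79, adjusted p = 0.0609). The count of 5 risen genes became 3 without library 2 at 22 °C or without library 1, 3 or 4 at 30 °C.

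Mitochondrial genes were lower almost as a block. Of 36 complex I subunits 35 fell and none rose (median -0.86), of 43 genes of complexes II to V, counted with cytochrome c (Cycs) and the ATPase inhibitor Atpif1, 41 fell (25 under quantile normalization) and none rose (median -0.82), and of 55 mitochondrial ribosomal proteins 52 fell and none rose (median -0.65). At an unadjusted p under 0.05 in limma the count higher was again 0 in each of these 3 lists. Ndufs8 of complex I, with a fall of 1.12, read 5054, 6356, 4397 and 4468 at 22 °C and 2248, 2459, 2413 and 2132 at 30 °C. Cox6a1 of cytochrome oxidase fell by 1.23 (adjusted p = 0.000123) and Uqcrc1 of complex III by 0.90 (adjusted p = 0.000191). Library 2 at 22 °C gave the highest value of all 8 for each of these 3 genes. The complex I gene outside the call was Ndufa5 (-0.55, adjusted p = 0.073), and those of the other list were Cox6a2, a muscle form at 0 in library 2 at 22 °C, and Atpif1 (0.34, adjusted p = 0.156). Mrps11 of the small mitoribosomal subunit fell from the range 302 to 408 at 22 °C to the range 142 to 183 at 30 °C (log2 difference -1.12, SE 0.13, adjusted p = 2.34e-05), and Mrpl20 of the large one by 1.16. Scaling to the mean total left 30 of 36, 35 of 43 and 29 of 55 lower, and leaving out the 2 libraries named above left 25, 30 and 34.

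Genes of fuel breakdown were lower as well. Of 30 fatty acid oxidation genes 26 fell and none rose, with a median of -0.83. Slc25a20, the carnitine carrier, had 5719, 6984, 5190.1 and 6307 at 22 °C and 1889.7, 2186, 1852 and 2215 at 30 °C, with the groups far apart (log2 difference -1.57, SE 0.12, adjusted p = 4.7e-07). Acsl1, which activates fatty acids, fell from the range 30259 to 38824 at 22 °C to the range 11712 to 13240 at 30 °C (log2 difference -1.53, SE 0.17, adjusted p = 1.28e-05). Cpt2 and Acads fell by 1.20 and 1.29. The 4 without a call were Cpt1a, the liver form of the entry enzyme (0.16, adjusted p = 0.374), Etfa (-0.40, adjusted p = 0.0522), the peroxisomal Ehhadh (-0.65, adjusted p = 0.361) and Acsl5 (-0.43, adjusted p = 0.0516).

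Of 33 genes of the citric acid cycle and pyruvate entry 27 fell, or 16 under quantile normalization. Mpc1 and Mpc2, the pyruvate carrier, fell by 1.28 and 1.49, and the pyruvate carboxylase Pcx by 1.26. The member that rose was Pdp1 (0.51, adjusted p = 0.0217), a phosphatase that activates pyruvate dehydrogenase, a call lost without library 3 at 22 °C or library 4 at 30 °C. Pdk4, the kinase that inhibits the same enzyme, had 16054, 37740, 12522 and 19004 at 22 °C and 13074, 14667, 10774 and 14541 at 30 °C. Its groups overlapped, and the difference of -0.57 was not past the threshold (adjusted p = 0.218). Breakdown of branched-chain amino acids and ketones followed, with 17 of 25 genes lower, among them Bckdha at -1.02 (adjusted p = 2.24e-05). Ppm1k, which switches on the branched-chain dehydrogenase, was the 1 that rose (0.34, adjusted p = 0.0393), but not without libraries 1, 2 or 4 at 22 °C or 1 or 3 at 30 °C.

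Genes of sugar use were lower in part. Of 26 genes of glycolysis and glucose uptake 15 fell and 4 rose (median -0.52), where 17.7% and 15.0% of all genes tested did so. The count of falls was 11 after scaling to the mean total and 10 under quantile normalization. It was also 10 without library 2 at 22 °C and library 1 at 30 °C. The list score of library 3 at 22 °C, -0.29, lay below those of libraries 2 and 3 at 30 °C, -0.14 and -0.12. Pfkl, the liver form of phosphofructokinase, had 6124, 4585, 2868 and 4215 at 22 °C and 1234, 1958, 1509 and 1636 at 30 °C (log2 difference -1.46, SE 0.20, adjusted p = 7.73e-05). Ldha and Eno1 fell by 1.32 and 1.37. Slc2a4, the insulin-regulated glucose transporter GLUT4, overlapped between temperatures and did not pass (-0.48, adjusted p = 0.0623). The genes that rose were the transporters Slc2a1 (0.53, adjusted p = 0.0118) and Slc2a3 (0.71, adjusted p = 0.00998), the lactate exporter Slc16a3 and Aldoc, the last 2 at under 30 normalised counts in every Cre-labelled library. Leaving out library 2 at 22 °C with library 1 at 30 °C kept 1 of these 4 calls, that of Aldoc, which was lost without library 4 at 22 °C. The Slc16a3 call was lost without library 2 or 3 at 22 °C or without any 1 warm library. Glycogen genes were divided, with 7 of 20 lower and 2 higher, the latter 1 without library 4 at 22 °C or library 3 at 30 °C, and with 4 each way after scaling to the mean total. Gys2, the liver form of glycogen synthase, fell furthest, from 294, 182, 176 and 291 to 22.8, 27.1, 25 and 26.4 (log2 difference -3.13, SE 0.21, adjusted p = 1.25e-07).

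**Figure D3:**
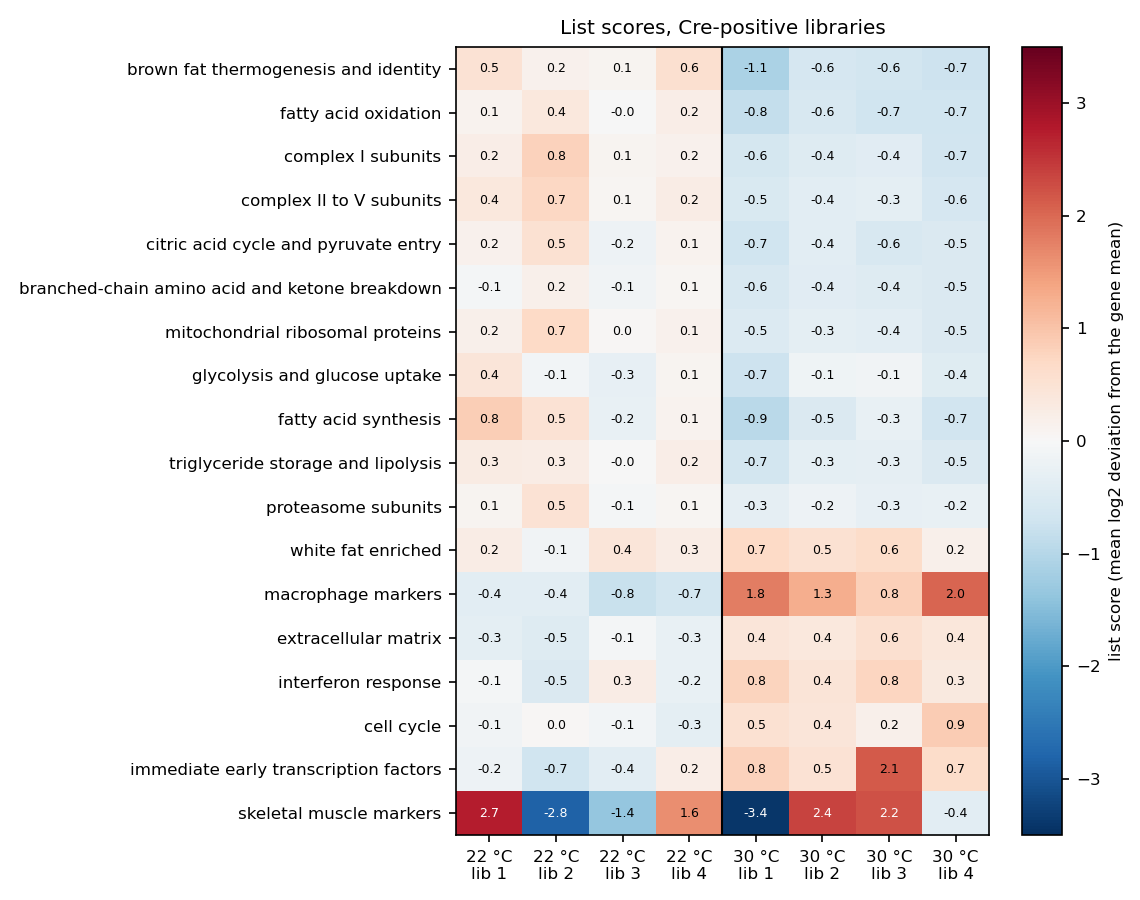
Score of 18 gene lists (rows) in the 8 Cre-labelled libraries (columns), each the mean over the list's genes of log2(value + 1) minus that gene's mean over all 16 RNA libraries; red is higher and blue lower. The mitochondrial lists are highest in library 2 at 22 °C, macrophage markers run from 0.83 to 2.05 at 30 °C, and muscle markers vary from -3.41 to 2.74 across both temperatures.

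Genes of lipid synthesis, which cold is known to keep high in brown fat beside oxidation, were mostly lower at 30 °C. Of 22 fatty acid synthesis genes 15 fell and 1 rose, with a median of -0.97. Fasn, fatty acid synthase, had 209830, 150970, 43890 and 94810 at 22 °C and 7156, 19803, 42126 and 13851 at 30 °C. Its values were widely spread at both temperatures, and library 3 at 30 °C came just under library 3 at 22 °C (log2 difference -2.66, SE 0.50, adjusted p = 0.000822). Scd1, the stearoyl-CoA desaturase, had 367380, 542010, 102300 and 163930 at 22 °C and 72726, 90418, 56796 and 65296 at 30 °C. Scd1 alone held 1.01 to 4.21% of each cool Cre-labelled library's total and 0.6 to 0.96% of each warm one (log2 difference -1.77, SE 0.44, adjusted p = 0.0053). Quantile normalization, which gives the top genes of each library like values, removed that call (adjusted p = 0.126). Elovl6 fell from the range 2750.3 to 11904 at 22 °C to the range 972 to 1726 at 30 °C (log2 difference -2.36, SE 0.35, adjusted p = 0.000123), and the citrate carrier Slc25a1 by 1.59.

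Acaca and Acly, which make malonyl-CoA and acetyl-CoA, fell with less certainty. Acaca was 29104, 24749, 6118 and 13265 at 22 °C and 3559, 5403, 7607 and 3861 at 30 °C, with overlap through library 3 of each temperature (log2 difference -1.67, SE 0.40, adjusted p = 0.00457, and 0.0557 without library 2 at 22 °C and library 1 at 30 °C). Acly likewise overlapped (-1.32, adjusted p = 0.0199), and its call was lost without library 1 or 2 at 22 °C or library 1 at 30 °C. Scd2, another desaturase, was the member that rose (1.07, adjusted p = 0.0222), lost without library 2 or 4 at 22 °C or 3 or 4 at 30 °C. The transcription factors over this pathway did not pass the test, Srebf1 at -0.43 (adjusted p = 0.194) and Mlxipl, which encodes ChREBP, at -0.11 (adjusted p = 0.711). Mfsd2a, a transporter of lysophosphatidylcholine, had the largest fall among genes past the threshold whose groups did not overlap and whose highest group mean was at least 100, predicted genes aside. It read 347, 661, 64.4 and 224 at 22 °C and 2.18, 4.94, 28.4 and 16.8 at 30 °C (log2 difference -4.60, SE 0.79, adjusted p = 0.000413).

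Genes for storing and releasing triglyceride moved in the same direction, with 17 of 29 genes lower (10 under quantile normalization) and 1 higher. Agpat2, an acyltransferase needed for fat cells to form triglyceride, had 15139, 15841, 9514 and 10883 at 22 °C and 2058, 2777, 3013 and 2734 at 30 °C, a fall of 2.26 (SE 0.22, adjusted p = 3.61e-06). Cidec and Plin1 of the droplet coat fell by 1.00 and 1.08, and Abhd5, which activates the first lipase, by 1.14. Lipe, hormone-sensitive lipase, missed the threshold (-0.32, adjusted p = 0.0527). Lpl, which takes up fat from blood lipoproteins, fell by 0.81 (adjusted p = 0.0042, and 0.474 under quantile normalization). Its inhibitor Angptl4 was the member that rose, from the range 3100.4 to 5342 at 22 °C to the range 6028 to 8209.5 at 30 °C (log2 difference 0.82, SE 0.25, adjusted p = 0.0178), with an adjusted p of 0.0604 when library 1 at 22 °C was left out.

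Acyl-CoA thioesterases, which free fatty acids from coenzyme A, held some of the largest falls. Acot1, the cytosolic form, had 1506, 2329, 1575 and 1657 at 22 °C and 98.2, 161, 243 and 99.4 at 30 °C (log2 difference -3.63, SE 0.59, adjusted p = 0.000254). Acot2, its mitochondrial neighbour, fell by 1.14 and Acot3, a peroxisomal one, by 2.21 (adjusted p = 0.00716, and 0.0592 without library 2 at 22 °C and library 1 at 30 °C). These clustered genes are close copies, and reads could have been split between them. Acot7 and Acot9 did not pass (-0.08, adjusted p = 0.586 and -0.14 (adjusted p = 0.498)). Of 23 thioesterases and synthetases 12 fell (6 after scaling to the mean total and 6 without library 2 at 22 °C and library 1 at 30 °C) and 1, Acsm3, rose (1.16, adjusted p = 0.000669). Glycerol handling fell with them, in 4 of 7 genes, with Gpd1 from the range 61716 to 96738 at 22 °C to the range 28103 to 43413 at 30 °C. Pck2 rose (0.74, adjusted p = 0.00231) while Pck1 fell (-0.90, adjusted p = 0.00281). Under quantile normalization the calls of Gpd1 and Pck1 were lost (adjusted p = 0.0579 and 0.457).

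Genes listed as enriched in white fat went both ways, with 8 of 18 higher and 4 lower. Over all genes tested the shares were 15.0% and 17.7%. Lep, the leptin gene, had 1217, 355, 630.2 and 717 at 22 °C and 3058, 4154, 4179 and 2429 at 30 °C. All warm libraries lay above all cool ones, library 1 being the highest of the cool (log2 difference 2.34, SE 0.32, adjusted p = 6.61e-05). Nnat, an imprinted membrane protein gene, had 661, 973, 2145 and 1111 at 22 °C and 15798, 13703, 15162 and 9956 at 30 °C, a 12.1-fold rise (log2 difference 3.59, SE 0.30, adjusted p = 8.52e-07). Mest, an imprinted gene tied to fat cell enlargement, rose from the range 184 to 354 at 22 °C to the range 596 to 1648 at 30 °C (log2 difference 1.99, SE 0.40, adjusted p = 0.00121), and Sncg by 1.85 (adjusted p = 2.92e-06). The members that fell were Aspg (-3.67), the amino acid transporters Slc7a10 (-2.41) and Slc36a2 (-1.02), and Hoxc8 (-0.89). Slc36a2 is, however, known as a marker of brown and beige fat cells, so its fall does not bear on white fat. Adipoq and Fabp4, shared by white and brown fat cells, did not pass (-0.30, adjusted p = 0.151 and -0.52 (adjusted p = 0.0544)). Of 19 secreted adipocyte signals 6 rose (3 without library 1 at 22 °C), Lep among them, and 4 fell, with a median of -0.03. Rbp4 fell by 1.68, Angptl8 by 1.33 and Nrg4 by 0.66. Vegfa, an angiogenic factor, differed by -0.03 (adjusted p = 0.905), and Fgf21 was under the filter on low values.

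The 4 largest rises named here, those of Clec4d, Atp6v0d2, Gpnmb and Mmp12, were of genes known from macrophages. Of 27 macrophage markers 25 rose and none fell, with a median of 1.63, and the same count of 25 held in each of the 8 fits that left out 1 Cre-labelled library. Their summed level was 3100 to 4184 at 22 °C and 8769 to 28008 at 30 °C. Cd68, a lysosomal marker of macrophages, had 104, 83, 80.4 and 75.3 at 22 °C and 653, 369, 229 and 809.7 at 30 °C (log2 difference 2.42, SE 0.30, adjusted p = 3e-05). Itgax, the integrin CD11c, had 36.3, 16.6, 18.8 and 22.8 at 22 °C and 327, 189.9, 75.6 and 419.7 at 30 °C (log2 difference 3.17, SE 0.40, adjusted p = 3.57e-05). Library 3 was lowest and library 4 highest among the warm libraries for both.

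The genes below, known from macrophages, were named by the size or the adjusted p of single genes or after their values were seen, and were not tested as a group. Gpnmb, a transmembrane glycoprotein, read 37.6, 39.2, 23.1 and 15.6 at 22 °C and 2550.1, 1065, 158 and 4684 at 30 °C (log2 difference 5.41, SE 0.69, adjusted p = 3.57e-05). Trem2, a lipid-sensing receptor, read 4.88, 10, 6.38 and 8.61 at 22 °C and 207, 106, 26.3 and 301 at 30 °C (log2 difference 3.82, SE 0.60, adjusted p = 0.000208). Lgals3, galectin-3, read 120.5, 78.9, 63.4 and 65.7 at 22 °C and 1675, 957, 326 and 2127 at 30 °C (log2 difference 3.68, SE 0.41, adjusted p = 1.38e-05). In each of the 3, library 4 was highest and library 3 lowest in the warm group, and even library 3 exceeded all cool libraries. Mmp12, the macrophage elastase, followed the same order with 41, 35.5, 32.8 and 27.6 at 22 °C and 2882, 1648, 190.3 and 3978 at 30 °C (log2 difference 5.30, SE 0.62, adjusted p = 2.18e-05). Atp6v0d2, a subunit of the lysosomal proton pump, reached 403, 198, 26.8 and 598 from values under 7. Clec4d, a lectin receptor, was at 0 in 2 cool libraries and reached 162, 96.4, 14 and 192 in warm ones. Cd163, a scavenger receptor of resident macrophages, did not pass (-0.15, adjusted p = 0.808), nor did Cx3cr1 (0.64, adjusted p = 0.118).

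**Figure D4:**
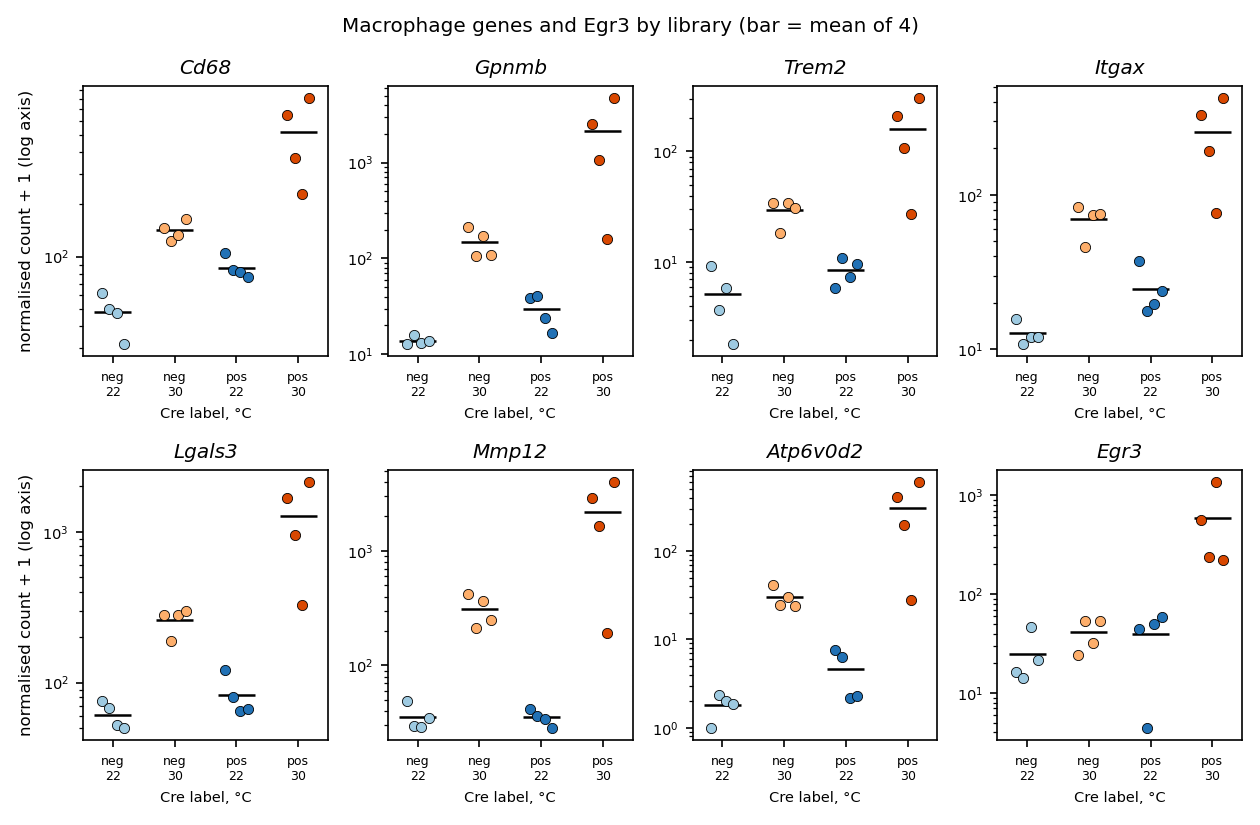
Normalised count + 1 on a log axis for 7 macrophage genes and Egr3 in all 16 RNA libraries, by Cre label and temperature in °C; points are libraries and bars are means of 4. All 4 warm Cre-labelled libraries lie above the 4 cool ones for each gene, and library 3, with a Cd68 value of 229, is the lowest warm one for the macrophage genes and the highest for Egr3.

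Genes of the matrix and of other cells were also higher in part. Over all genes tested, 15.0% were higher and 17.7% lower. Of 34 extracellular matrix genes 25 rose and 1, Lamb1, fell (median 0.73). Col3a1 had 2870.4, 3196, 3576 and 2993 at 22 °C and 6907, 6171, 7619.7 and 5947 at 30 °C (log2 difference 1.07, SE 0.11, adjusted p = 8.65e-06). Thbs1, thrombospondin-1, rose from the range 73.2 to 120.4 at 22 °C to the range 555 to 1529.8 at 30 °C (log2 difference 3.39, SE 0.52, adjusted p = 0.000153), and Mmp14, a membrane-bound collagenase, by 1.26. Lamb1, a basement membrane laminin, differed by -0.46 (adjusted p = 0.0431), a call lost without library 4 at 22 °C or library 1, 3 or 4 at 30 °C, among others. Of 16 progenitor markers 6 rose (12 after scaling to the mean total and 3 without library 2 at 22 °C and library 1 at 30 °C), led by Dlk1 (2.14, adjusted p = 1.29e-05) and Cd34 (1.43, adjusted p = 2.78e-05), and of 18 endothelial markers 5 rose (8 without library 3 at 22 °C and 10 after scaling to the mean total), with Cldn5 of tight junctions at 1.6 (adjusted p = 0.000637). Pgf, a growth factor for vessels, rose from the range 10.3 to 29.8 at 22 °C to the range 139 to 223 at 30 °C (log2 difference 3.23, SE 0.44, adjusted p = 6.66e-05). Of 13 mural and smooth muscle markers 3 rose and 2 fell, near the shares over all genes. Without library 1 or 4 at 22 °C or library 1 or 4 at 30 °C 1 rose and 1 or none fell, and scaling to the mean total gave 5 and 0. Of 13 lymphocyte markers 5 rose, down to 2 without library 2 at 22 °C and 1 under quantile normalization, and none of 9 Schwann cell and nerve markers passed by limma, with none higher and 1 lower at an unadjusted p under 0.05. Summed levels ran from 22646 to 32763 at 22 °C and 35042 to 41079 at 30 °C for progenitor markers, from 26964 to 45802 and 39805 to 47829 for endothelial ones, and from 178 to 247 and 303 to 536 for lymphocyte ones. The part of any of these cells in the rise of the matrix genes was not tested.

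Interferon response genes were higher in 19 of 27 cases, with 12 left without library 4 at 22 °C or without library 3 at 30 °C, and 8 without the pair named above. For this list and the next 2, the shares over all genes tested were 15.0% higher and 17.7% lower. Oas1a, an antiviral nucleotide synthase, rose from the range 29.9 to 35.2 at 22 °C to the range 71.2 to 116 at 30 °C (log2 difference 1.48, SE 0.19, adjusted p = 4.45e-05). Ifi27 was the exception and fell from the range 13306 to 15940 at 22 °C to the range 6417 to 7314 at 30 °C (log2 difference -1.06, SE 0.14, adjusted p = 4.39e-05). Of 28 cell cycle genes 13 rose, such as Mki67, from the range 52.8 to 77.7 at 22 °C to the range 115 to 259 at 30 °C (log2 difference 1.56, SE 0.30, adjusted p = 0.000998). That count fell to 5 without library 4 at 30 °C, 7 without library 1 at 30 °C and 8 without library 4 at 22 °C. The proteasome, which clears damaged proteins, had 21 of 32 genes lower (median -0.39) in a list of subunits and their regulator Nfe2l1, such as Psmb5 (-0.77, adjusted p = 0.000665), but 11 without library 2 at 22 °C, 7 without the pair and 3 after scaling to the mean total. Macrophage markers were higher in the same warm libraries, and their part in the interferon and cell cycle counts was not tested.

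Immediate early genes, which answer stimuli within minutes and most of which encode transcription factors, were higher in 11 of 22 cases, with a median of 1.03. Of all genes tested 15.0% were higher. Egr3 had 43.3, 3.46, 48.8 and 58 at 22 °C and 568, 238, 1356 and 223 at 30 °C (log2 difference 4.03, SE 0.71, adjusted p = 0.000488). Atf3, a stress-induced factor, had 109, 90.2, 53.9 and 166 at 22 °C and 780.4, 454, 1578 and 786 at 30 °C (log2 difference 3.06, SE 0.55, adjusted p = 0.000587). Library 3 was the highest warm library for both, and its score for the list was 2.14 against 0.5 to 0.82 in the other warm ones. Fosl2 of the AP-1 family rose from the range 246 to 446 at 22 °C to the range 981 to 2585 at 30 °C (log2 difference 2.15, SE 0.27, adjusted p = 3.08e-05). Nr4a1 and Junb overlapped widely and did not pass (0.26, adjusted p = 0.79 and 0.09 (adjusted p = 0.922)). Without library 2 at 22 °C and library 1 at 30 °C, 8 of the 22 were higher.

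Of 18 clock genes Nfil3 alone fell (-1.16, adjusted p = 0.0129), a call lost without library 2 at 22 °C, and no other clock gene passed the test. With 1 library left out the number of clock genes lower ranged from 1 to 3, being 3 without library 2 and 2 without library 3 at 22 °C or library 3 at 30 °C. Of 22 genes of the unfolded protein and integrated stress responses 2 rose (4 without library 2 at 22 °C), Pdia4 (0.56, adjusted p = 0.000641) and Xbp1 (0.95, adjusted p = 0.00179), and 3 fell (5 without library 4 at 30 °C), while scaling to the mean total gave 8 and 1. Over all genes tested 15.0% rose and 17.7% fell. Cholesterol genes were lower in 6 of 24 cases and higher in 4, near the shares of 17.7% and 15.0% over all genes, and scaling to the mean total gave 4 and 7. The count of higher genes was 2 without library 2 at 22 °C and 1 without library 4 at 30 °C. Pmvk fell (-1.25, adjusted p = 0.000455) and Msmo1 rose (0.79, adjusted p = 0.00559).

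Apoptosis regulators rose in 11 of 34 cases and fell in 5, against 15.0% and 17.7% of all genes tested, or in 17 and 1 after scaling to the mean total, with Bid at 1.41 (adjusted p = 2.24e-05), Bcl2 at 1.11 (adjusted p = 0.000475) and the mitochondrial nuclease gene Endog at -1.16 (adjusted p = 4.88e-05). Of 25 genes reported as repressed by BCL6 in other cells 9 rose and 1 fell (median 0.38), or 16 and 0 after scaling to the mean total. In controls 11 of the 25 rose and 5 fell (median 0.49). The response differed between the labels past the threshold for 1 of them. Ccl2 is also counted among the macrophage markers. Ccl2 and Ccl7, chemokines that draw monocytes, rose by 3.16 and 3.22, and Cd44 had 86.9, 78.9, 76.6 and 73.7 at 22 °C and 428, 299, 246 and 483 at 30 °C (log2 difference 2.14, SE 0.23, adjusted p = 1.07e-05). Socs2 fell (-0.78, adjusted p = 0.0223), a call lost without library 2 or 4 at 22 °C or library 2 at 30 °C.

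The question of whether fat with the Cre label answers warmth differently was addressed by the same comparison in the controls. It gave 3012 genes higher (22.9%) and 2987 lower (22.7%). The 2 comparisons share no library. Their tests do share 1 estimate of the spread per gene, taken over all 16 libraries, so the calls are not independent. Of the 1978 genes higher in Cre-labelled fat 1513 (76.5%) were also higher in controls, which is 50.2% of the 3012, and 1926 were lower in both (82.4% of 2336 and 64.5% of 2987). Of the genes higher in Cre-labelled fat 2 were lower in controls, and of those lower 7 were higher in controls. Across the 13176 genes the 2 differences had Pearson's r of 0.76 and Spearman's rho of 0.81, as a description over genes that are not independent. Of 44 skeletal muscle genes 27 were higher at 30 °C in controls, with a median of 3.53, and 1, Casq2, in Cre-labelled fat (1.48, adjusted p = 0.000711). No muscle gene passed limma's test of the difference between the responses, and 9 of 44 had a more negative response in Cre-labelled fat at an unadjusted p under 0.05.

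The difference between the 2 responses was past the threshold for 58 genes (0.44%), 23 with a more positive response in Cre-labelled fat (0.175%) and 35 with a more negative one (0.266%). The first count became 40, 9 or 4 without control library 1, 2 or 3 at 22 °C, 6, 42, 6 or 10 without control library 1, 2, 3 or 4 at 30 °C, 15, 15 or 13 without Cre-labelled library 1, 3 or 4 at 22 °C, and 4 without Cre-labelled library 1 at 30 °C. The second became 62 or 17 without control library 1 or 3 at 22 °C, 17 without control library 1 or 3 at 30 °C, 20 or 23 without Cre-labelled library 1 or 4 at 22 °C, and 17 without Cre-labelled library 1 at 30 °C. Tusc3, which encodes an oxidoreductase of the oligosaccharyltransferase, was among them. It had 144, 256, 168 and 136 at 22 °C and 215, 259.7, 206 and 261 at 30 °C in Cre-labelled fat, with no call (0.46, adjusted p = 0.102), and 341, 178, 195 and 266 at 22 °C and 3772, 3903, 3082 and 3012 at 30 °C in controls, a rise of 3.85. The difference between the responses was -3.39, SE 0.29, adjusted p = 1.23e-05. Cdsn, an adhesion protein gene known from skin, and Ddah1, which degrades an inhibitor of nitric oxide synthase, had the same pattern, with differences of -3.05, SE 0.28, adjusted p = 1.96e-05 and -2.52, SE 0.21, adjusted p = 1.23e-05. Prss12, Rgs11 and Emid1 likewise rose in controls, by 3.99, 3.78 and 2.89, and had values under 40 in all 8 Cre-labelled libraries.

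Other genes were lower at 30 °C in both labels or in controls alone. Gys2 fell in both, by 3.13 in Cre-labelled fat and by 1.32 in controls, a difference of -1.81, SE 0.30, adjusted p = 0.00975. Acsl5, an acyl-CoA synthetase, fell by 2.11 in controls, and in Cre-labelled fat its values were 1244, 1415, 859 and 1019 at 22 °C and 777, 824, 787 and 916 at 30 °C, with a difference between responses of 1.68, SE 0.23, adjusted p = 0.00249. Mt2, a metallothionein that binds zinc and copper, fell by 1.63 in controls, while in Cre-labelled fat it had 761, 876, 596 and 693 at 22 °C and 926, 1003, 1265 and 824 at 30 °C (difference 2.09, SE 0.30, adjusted p = 0.0035). Its neighbour Mt1 had a smaller difference of 1.15, SE 0.24, adjusted p = 0.0403. Fosl2 rose in Cre-labelled fat but not past the threshold in controls (0.25), with a difference of 1.90, SE 0.38, adjusted p = 0.0348. That call was lost under several settings, among them scaling to the mean total and leaving out any 1 of libraries 1, 2 or 3 at 22 °C or library 1 at 30 °C of the Cre-labelled fat.

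Atp5g1, 1 of 3 genes for the c subunit of ATP synthase, had 3177, 3764, 1677 and 2408 at 22 °C and 695, 944, 1070.1 and 765 at 30 °C in Cre-labelled fat, a fall of 1.62. Control values were 160.3, 70.8, 86.1 and 62.8 at 22 °C and 134, 144, 148 and 117 at 30 °C. Its response differed from that of controls (-2.23, SE 0.37, adjusted p = 0.0114), whereas Atp5g2 and Atp5g3 fell under both labels (-0.67 and -0.77 in Cre-labelled fat, -0.58 and -0.76 in controls). These genes encode the same mature protein from similar sequences, so reads could have been divided between them. Myd88, the adaptor of Toll-like receptors, fell in controls by 0.81 and differed by 0.13 (adjusted p = 0.364) in Cre-labelled fat (difference 0.94, SE 0.15, adjusted p = 0.00959). Shmt1, a one-carbon enzyme, fell in Cre-labelled fat by 0.88 with 0.11 in controls (difference -0.99, SE 0.17, adjusted p = 0.0174). Of the 25 named genes with such a difference, 11 kept it under every alternative run.

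**Figure D5:**
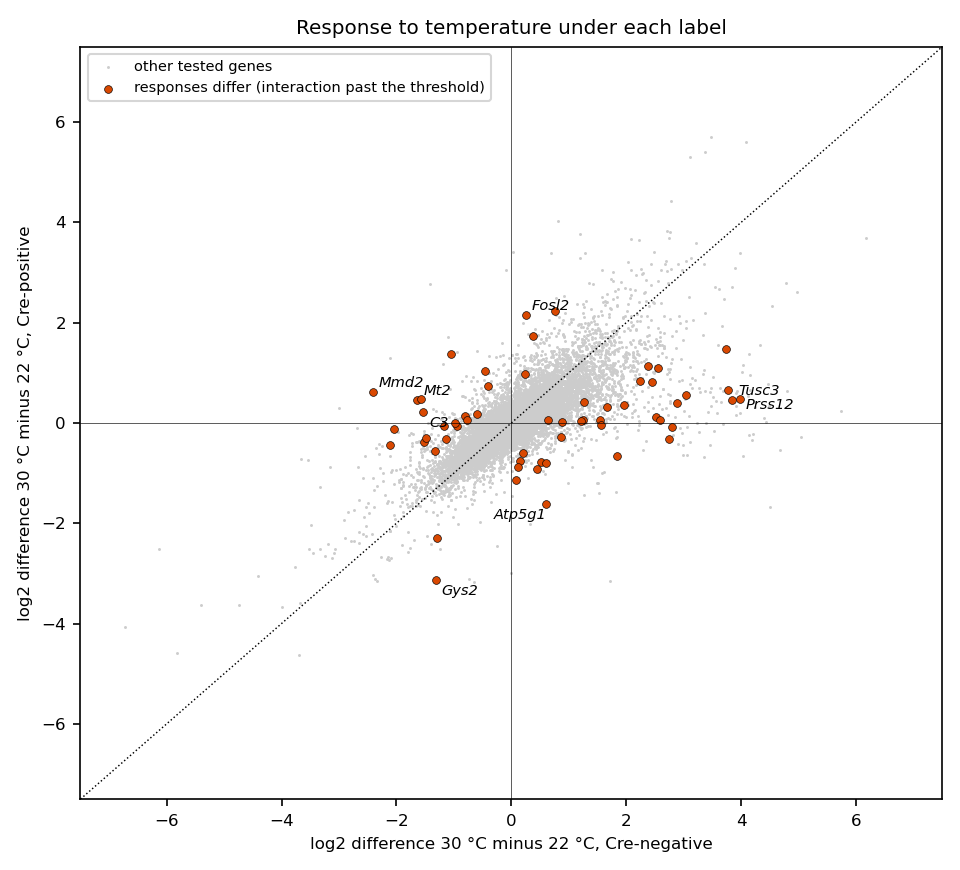
Log2 difference between 30 °C and 22 °C in controls (x axis) and in Cre-labelled fat (y axis) for 13176 genes; the dotted line marks equal responses and orange points are the 58 genes whose responses differed past the threshold. Tusc3 and Prss12 lie far right near 0 on the y axis, and Atp5g1 and Gys2 lie low.

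Deposited BCL6 peaks, called in 1 library of control fat at 30 °C, lay within 10 kb of the start of 5.61% of the genes that were higher at 30 °C in Cre-labelled fat (111 of 1978, 95% Wilson interval 4.68 to 6.71%). For genes lower at 30 °C the share was 9.59% (224 of 2336, 8.46 to 10.85%), and for genes not past the threshold 7.74% (686 of 8862, 7.20 to 8.32%). The intervals cover counting error only. Socs2 held the peak with the highest score among named genes, 122.6, at 72 bases before its start (chromosome 10, 95416839 to 95417019). A pair near Atp5g1 scored 48.6 and 47.9, at 1212 bases before and 5112 after the start. The Acot1 peak scored 15.6 and lay 340 before the start (chromosome 12, 84009072 to 84009252). The Lep peak scored 19.8 and lay 263 before it (chromosome 6, 29059868 to 29060048). Scores and annotations are the authors' own values.

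Promoter letters were compared over the 10480 tested genes that have a RefSeq window, on both strands. The E-box letters CACGTG stood in 11.7% of all windows, in 9.22% for genes higher at 30 °C and in 12.1% for genes lower. The AP-1 letters TGACTCA, printed above for 3 macrophage genes, were in 4.57% of all, 5.44% of higher and 3.98% of lower genes. The cyclic AMP letters TGACGTCA were in 3.51, 2.92 and 3.82%. TTCNNAGAA, the loose form of the letters that BCL6 and STAT factors recognise, was in 5.11, 6.23 and 4.50%, and its strict form TTCCTAGAA, which is contained in it, in 0.44, 0.27 and 0.37%. The ERR letters TCAAGGTCA were in 0.34, 0.40 and 0.42%. For genes higher at 30 °C the Wilson interval of CACGTG, 7.86 to 10.78%, lay below its share over all windows, and that of TTCNNAGAA, 5.12 to 7.57%, began just above it. With no limit on the fold, the intervals of the other motifs held the share over all windows in both directions.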

How the data were processed

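RNA of interscapular brown fat was sequenced as single reads from stranded polyA libraries, per the labels' protocols, 4 libraries in each of 4 groups of Cre label and temperature. The deposited signal is 1 normalised count per gene and library in a table of 24116 genes, and kallisto, DESeq2 and mm10 stand in the submitters' processing notes, without parameters. The values are not whole and could not be turned back into reads, so the sequencing depth is unknown and no count model was used. No column lacked a sample, no 2 libraries were identical, and 26 symbols that had become dates were restored. The BCL6 peak scores were deposited by the authors for 1 library of control fat at 30 °C, annotated with HOMER on mm10 per the file headers; other chromatin samples were not analysed here.

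Differences were computed with limma 3.58.1 in R 4.3.3 on log2(value + 1), with a mean for each group over all 16 libraries, a variance trend, and Benjamini-Hochberg adjustment over 13176 genes with a mean of at least 10. The residual degrees of freedom were 12 and the prior ones 4.83. Interaction means the Cre-labelled difference minus the control difference. Shares and figures used Python 3.11.15, pandas 2.3.3, scipy 1.17.1 and numpy 2.4.6. On data simulated for the Cre-labelled comparison in 13176 genes, 77.5, 93.8 and 97.5% of genes changed by 1, 2 and 4 on the log2 scale were recovered, and 13 of 189 calls were unchanged genes. For the interaction the shares were 47.5, 88.8 and 97.5%, with 11 of 159. The genes changed numbered 80, 80 and 40, and those with the lowest mean log2 values were not among them. Noise was drawn for each gene separately, so differences shared by many genes of a library, such as those of muscle genes, were not simulated. These rates need not hold for the data.

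Named genes were Bcl6, the 14 largest and 14 smallest differences past the threshold without overlap and with a group mean of at least 100, the 8 and 8 of the interaction, up to 6 members of each list by adjusted p and up to 3 by the interaction, a fixed set of known genes, and families of these. Outside that rule, members named because a list had 5 or fewer calls in a direction, and Ndufa5, Atpif1, Cox6a2, Cd163, Cx3cr1, Cpt1a, Etfa, Ehhadh, Lipe, Fabp4, Adipoq, Zic1, Ebf2, Pparg, Cebpa, Nr4a1, Junb and Lars2, were chosen after their values were seen. Some genes that the rule selects are not reported here. The members and the gene lists were chosen with earlier results of these data known. Alternatives were pseudocounts of 0.5 and 5, means of at least 50 or no filter, scaling to the mean total, quantile normalization, no trend, robust variance, the 8 libraries alone, a muscle score as covariate, a replicate block, and each library left out. Promoter windows are from RefSeq, GRCm38.p6, and matched 10480 of 13176 genes.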

Additional observations from a re-analysis of the deposited data

Results flagged for a closer look

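In groups of 4, a library counts as far from the others when its gap to the nearest, relative to the group's range, exceeds Dixon's 95% critical value, which chance gives in about 1 of 20 groups; 13 of 234 groups had 1. In warm Cre-labelled fat, Dio2 stood apart in library 3 with 1253, and Syt12 in library 2 with 139. In cool Cre-labelled fat, Cidea stood apart in library 2 with 45124, and 3 genes did so in library 4: Gk with 2465, Esrrg with 407 and Lpl with 49381. Among list scores, library 2 at 22 °C stood apart for thioesterases and synthetases (0.64), glutathione and antioxidant genes (0.32) and the single mesothelial marker (1.75), and library 3 at 22 °C for triglyceride storage (-0.02). At 30 °C library 1 stood apart for mitochondrial carriers (-0.36), library 2 for adrenergic signalling (-0.18) and library 3 for the 11 fat cell markers (-0.35).

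The temperature response differed between the labels past the threshold of limma's interaction test for 25 named genes, each value being the Cre-labelled log2 difference minus the control one. More positive in Cre-labelled fat were Mmd2 at 3.02, Mt2 at 2.09, Fosl2 at 1.90, C3 at 1.74, Acsl5 at 1.68, Cd14 at 1.48, Obsl1 at 1.47, Mt1 at 1.15, Myd88 at 0.94, Pltp at 0.82 and Slc25a3 at 0.81. More negative were Prss12 at -3.5, Tusc3 at -3.39, Rgs11 at -3.12, Cdsn at -3.05, Zfr2 at -2.88, Ddah1 at -2.52, Kcnj11 at -2.50, Emid1 at -2.49, Atp5g1 at -2.23, Gys2 at -1.81, Fads1 at -1.17, Clstn3 at -1.0, Shmt1 at -0.99 and Pde4a at -0.92. The call held under every alternative run for 11 of them, namely Gys2, Mt2, Acsl5, Prss12, Tusc3, Rgs11, Cdsn, Ddah1, Emid1, Atp5g1 and Myd88, and was lost under at least 1 for the other 14.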

How the results depend on the processing

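Of the 287 named genes called in Cre-labelled fat, 205 kept their call under every alternative run and 82 lost it under at least 1. One value changed sign, that of Cebpa, a factor of fat cell formation, at 0.26 under quantile normalization against -0.17 as reported. Scaling to the mean total gave 4397 genes higher and 1127 lower in Cre-labelled fat, 6569 and 1161 in controls, and 8 with a more positive interaction. Without library 2 at 22 °C and library 1 at 30 °C, an alternative chosen after seeing the data, the counts were 1226 and 1468, and 11 had a more positive interaction. More positive and more negative interactions numbered 14 and 23 without a variance trend and 11 and 18 with the muscle score as covariate, and 54 were more negative after quantile normalization. With 1 library left out, Cre-labelled counts ranged from 1500 to 2109 higher and 1832 to 2436 lower, control counts from 2476 to 2893 and 2606 to 2874, and interactions from 4 to 42 and 17 to 62. The causes were not tested. Peaks within 50 kb lay near 10.4% of higher, 13.8% of lower and 11.7% of other genes, and peaks with a score above the median near 2.07, 4.20 and 3.18%. Among genes changed at least 2-fold, TTCCTAGAA stood in 0.96% and TGACGTCA in 2.88% of lower and CACGTG in 7.75% of higher genes. Of the higher ones, TGACTCA stood in 6.51% (Wilson interval 4.76 to 8.85%) and TTCNNAGAA in 7.39% (5.52 to 9.84%). Both intervals lay above the shares over all windows, 4.57% and 5.11%. Among lower ones the intervals of these 2 motifs, 2.93 to 7.78% and 3.43 to 8.55%, held those shares.

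The labels give no sign that replicate numbers pair samples: deviations of same-numbered Cre-labelled libraries correlated at -0.48, -0.23, -0.17 and -0.13, control ones at -0.07, -0.12, -0.20 and -0.05, and none correlated best with its own number. With the replicate block, 1863 genes were higher and 2216 lower in Cre-labelled fat, and the interaction counts were 5 and 19.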

Other observations

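Of 34 glutathione and antioxidant genes 13 fell and 4 rose at 30 °C in Cre-labelled fat, with a median of -0.36. Of all genes tested 17.7% fell and 15.0% rose. Scaling to the mean total gave 9 lower and 9 higher (median -0.07), and quantile normalization 10 and 7. Cat, catalase, had 7172, 8184, 7032 and 8065 at 22 °C and 4419, 4625, 4271 and 4375 at 30 °C (log2 difference -0.78, SE 0.09, adjusted p = 2.34e-05), and Sod2, the mitochondrial superoxide dismutase, fell by 0.63 (adjusted p = 0.000534). The 4 that rose were the glutathione transferases Gstm2 (0.73, adjusted p = 0.00271) and Gstt1 (0.80, adjusted p = 0.00968), the haem oxygenase Hmox1 (0.77, adjusted p = 0.00557) and Nqo1 (0.84, adjusted p = 0.0359), the last lost without library 1, 2 or 4 at 22 °C or library 1, 3 or 4 at 30 °C. Ucp2, a relative of Ucp1 found in many cells, rose while Ucp1 fell, with 785, 1044, 968 and 825 at 22 °C and 1811, 1773, 1862 and 2241 at 30 °C (log2 difference 1.09, SE 0.14, adjusted p = 4.45e-05).

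Of 20 serine, glycine and one-carbon genes 4 rose and 5 fell, near the shares of 15.0% and 17.7% over all genes tested, and scaling to the mean total gave 6 and 2. Aldh18a1, which starts proline synthesis, had 33.9, 45.3, 57.3 and 38.3 at 22 °C and 96.9, 92, 114 and 92.9 at 30 °C (log2 difference 1.18, SE 0.17, adjusted p = 0.000112), and Phgdh, the first step to serine, rose by 0.78 (adjusted p = 0.0043). Psph, the last step to serine, fell, with 221, 252, 195 and 245 at 22 °C and 113, 131, 146 and 139.8 at 30 °C (log2 difference -0.78, SE 0.13, adjusted p = 0.000321). Insulin and IGF signalling genes went both ways. Of 25 tested 6 rose and 5 fell, with a median of 0.09, and scaling to the mean total gave 9 and 2. Among those that fell, Akt1 went from the range 2774 to 3447 at 22 °C to the range 1536 to 2094 at 30 °C (log2 difference -0.72, SE 0.11, adjusted p = 0.000141). The receptor Insr fell by 0.50 (adjusted p = 0.00161), a call lost on scaling to the mean total. The creatine transporter Slc6a8 rose from the range 402 to 564 to the range 698 to 906 (log2 difference 0.75, SE 0.14, adjusted p = 0.000603).

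Of 34 lysosomal genes 4 were higher and 7 lower, near the shares over all genes tested. Scaling to the mean total gave 13 and 1, and quantile normalization 8 and 6. The protease Ctss, which is also counted among the macrophage markers, had 196, 225, 113 and 163 at 22 °C and 2346, 1294, 484 and 2911 at 30 °C (log2 difference 3.08, SE 0.43, adjusted p = 7.53e-05). Its warm libraries stood in the same order as for the macrophage genes named above. The part of macrophages in its rise was not tested. Elovl1, an elongase of very long fatty acids, rose by 0.77 (adjusted p = 0.00378) while Elovl3 and Elovl6 fell. Lars2, a mitochondrial leucyl-tRNA synthetase gene, had 2929.5, 37388, 3332 and 61265 at 22 °C and 4648, 118010, 2546 and 6152 at 30 °C, with single libraries far above the rest at both temperatures and no call (-0.34, adjusted p = 0.841).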
